A study of Rattus norvegicus with 21 samples.

Results

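The genes described here are 37 rat genes of amino acid breakdown and the methionine cycle, measured in the liver of rats given 2-ethylhexyl diphenyl phosphate by mouth. The compound (EHDP, written EDHP in the sample labels) is an aryl alkyl ester of phosphoric acid that serves as a flame retardant and plasticiser. They were chosen by name. Each was read from the probe sets that the platform annotation gives exactly 1 symbol, and where a gene had several, the brightest over the 21 arrays stood for it. By this rule 36 of the 37 genes were found among 14218 genes in all. Amdhd1 had no such probe set in the table used here. The genes fall into 11 pathway groups, and 33 of the 36 lay above the median level of all genes.

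Male Harlan Sprague Dawley rats received EHDP in corn oil by gavage once daily on 4 days, and RNA came from the left lobe of livers collected on day 5. The groups were corn oil vehicle alone (6 arrays) and EHDP at 61.2, 122.5, 244.6, 489.2 and 978.5 mg/kg (3 arrays each), from 0.169 mmol/kg at the lowest to 2.7 mmol/kg at the highest. All groups share the strain, sex, vehicle and route, and no age is given in the sources used here. The treatment protocol speaks of 5 vehicle rats while 6 arrays carry dose 0, so a pair of vehicle arrays may share a rat. Correlations between the 15 pairs of vehicle arrays ran from 0.987 to 0.995, and those between the 15 pairs of arrays of one treated dose from 0.992 to 0.995. Whether any vehicle arrays share a rat was not tested.

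The liver is the main site at which most amino acids are broken down. Aminotransferases and dehydratases remove the nitrogen, which enters urea synthesis, and the carbon skeletons feed gluconeogenesis, ketogenesis and the citric acid cycle. In the methionine cycle, methionine is activated to S-adenosylmethionine, the methyl donor of the cell, and the homocysteine that remains is either methylated again or passed to cysteine synthesis. Many of these genes are held at high levels in hepatocytes by liver transcription factors such as HNF1 and C/EBP and respond to glucocorticoids, glucagon and feeding.

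Of the members that passed the test at 1 or more doses, 5 had a promoter in the RefSeq table used here (assembly GRCr8), and the 200 bases before the start of each are shown because the values below turn on these genes. The windows are chr9:21752082-21752281 for Gnmt, chr3:48188086-48188285 for Kynu, chr1:105178939-105179138 for Bcat2 and chr8:117860237-117860436 for Amt, all on the plus strand, and chr20:12068220-12068419 for Ftcd on the minus strand. Capitals mark a match, on either strand, to a motif searched for.
Gnmt: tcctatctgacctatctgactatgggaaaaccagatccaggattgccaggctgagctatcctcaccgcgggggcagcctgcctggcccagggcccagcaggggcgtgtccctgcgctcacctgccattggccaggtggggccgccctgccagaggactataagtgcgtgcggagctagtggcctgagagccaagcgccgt
Kynu: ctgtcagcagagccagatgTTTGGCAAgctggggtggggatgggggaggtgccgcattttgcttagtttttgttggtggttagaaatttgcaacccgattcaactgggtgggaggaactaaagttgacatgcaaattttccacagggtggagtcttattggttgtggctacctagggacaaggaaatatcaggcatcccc
Bcat2: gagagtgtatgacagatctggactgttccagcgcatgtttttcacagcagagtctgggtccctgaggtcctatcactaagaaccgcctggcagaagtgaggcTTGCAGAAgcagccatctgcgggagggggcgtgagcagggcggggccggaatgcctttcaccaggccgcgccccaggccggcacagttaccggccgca
Amt: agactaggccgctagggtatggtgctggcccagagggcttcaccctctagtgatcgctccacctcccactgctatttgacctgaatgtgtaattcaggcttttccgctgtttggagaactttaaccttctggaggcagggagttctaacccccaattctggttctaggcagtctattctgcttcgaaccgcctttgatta
Ftcd: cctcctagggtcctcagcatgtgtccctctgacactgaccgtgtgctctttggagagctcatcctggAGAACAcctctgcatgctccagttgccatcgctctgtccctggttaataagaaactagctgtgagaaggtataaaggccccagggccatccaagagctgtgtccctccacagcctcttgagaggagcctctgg
The capitals in Kynu and Bcat2 are matches to the C/EBP core TTGCNNAA, starting 181 and 98 bases before the gene's start, and those in Ftcd are a match to TGTTCT, a hexamer bound by the glucocorticoid receptor, starting 133 bases before it. The other motifs searched were the D-box core TTATGNAA, the E-box CACGTG, the HNF1 motif with 1 free middle base and the DR1 nuclear receptor element, each on both strands of the 250 bases before the start. Promoters were found for 29 of the 36 measured members. The C/EBP core was in 6 of the 29, against 9.22% of 33469 rat promoters, the glucocorticoid receptor hexamer in 5, against 17.5%, and the D-box core in 1, against 3.28%. The E-box, HNF1 and DR1 motifs were in 0 of the 29 and in 5.59%, 0.00299% and 0.0508% of all promoters. A match is a description of these letters, not a site or a cause.

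Values are log2 signals, differences are log2 treated minus vehicle with the standard error (SE) of the limma fit, and a gene is said to have risen or fallen only where its limma p, adjusted by Benjamini-Hochberg over all 14218 genes, was at most 0.05. All doses were compared with the same 6 vehicle arrays. Array medians lay between 6.33 and 6.41, and vehicle replicate 6 had the lowest mean correlation with the other arrays (0.988). None of 15 general hepatocyte markers, such as the albumin and transthyretin genes, rose or fell at 978.5 mg/kg by limma, and their mean log2 signal was 14.49 to 14.54 on the vehicle arrays and 14.46 to 14.50 on the arrays of that dose. Of 5 red blood cell markers 3 fell at 978.5 mg/kg (60%, where 10.2% of all genes were called). The log2 of their summed signal ran from 12.88 to 14.20 on the vehicle arrays and from 12.03 to 12.81 at that dose. On 6 of 9 endothelial markers replicate 1 was the lowest array in all 6 groups. Lyve1, a marker of liver sinusoidal endothelium, read 9.65 on vehicle replicate 1 and 10.57 to 10.97 on the other vehicle arrays. With a term for the replicate 1 arrays, added after this was seen, the same members were called at every dose and in the trend.

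At 978.5 mg/kg 2 members rose and 4 fell, which is 16.7% of the 36, where 10.2% of all genes were called. The genes that fell were Gnmt, Kynu, Sds and Prodh, and those that rose were Bcat2 and Amt. In 1 direction, 6.18% of all genes rose and 4.07% fell. The median difference of the members was 0.02, beside -0.02 over all genes, so the members did not shift as a block. At 489.2 mg/kg Bcat2 and Ftcd rose while Kynu and Gnmt fell (11.1% of members, 2.9% of all genes), and at 244.6 mg/kg Gnmt and Prodh fell (5.56% of members, 2.95% of all genes, with 2.52% rising and 0.429% falling). At 61.2 and 122.5 mg/kg 0 members were called by limma, where 0.0141% and 0.113% of all genes were called. At an unadjusted limma p under 0.05 there were 3 and 5 members. The share of all genes at that looser cut is not given here, so the shares called are no background for them. Without the 6 replicate 1 arrays, which left 2 arrays per dose, 2 members were called at 978.5 mg/kg (Gnmt and Kynu), 1 at 489.2 mg/kg (Gnmt) and 2 at 244.6 mg/kg (Gnmt and Prodh). The share of all genes called in that fit is not given here, so these counts cannot be set against it. In all, 7 members were called at 1 or more doses, 3 more in the dose trend only, and 26 nowhere.

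**Figure D1:**
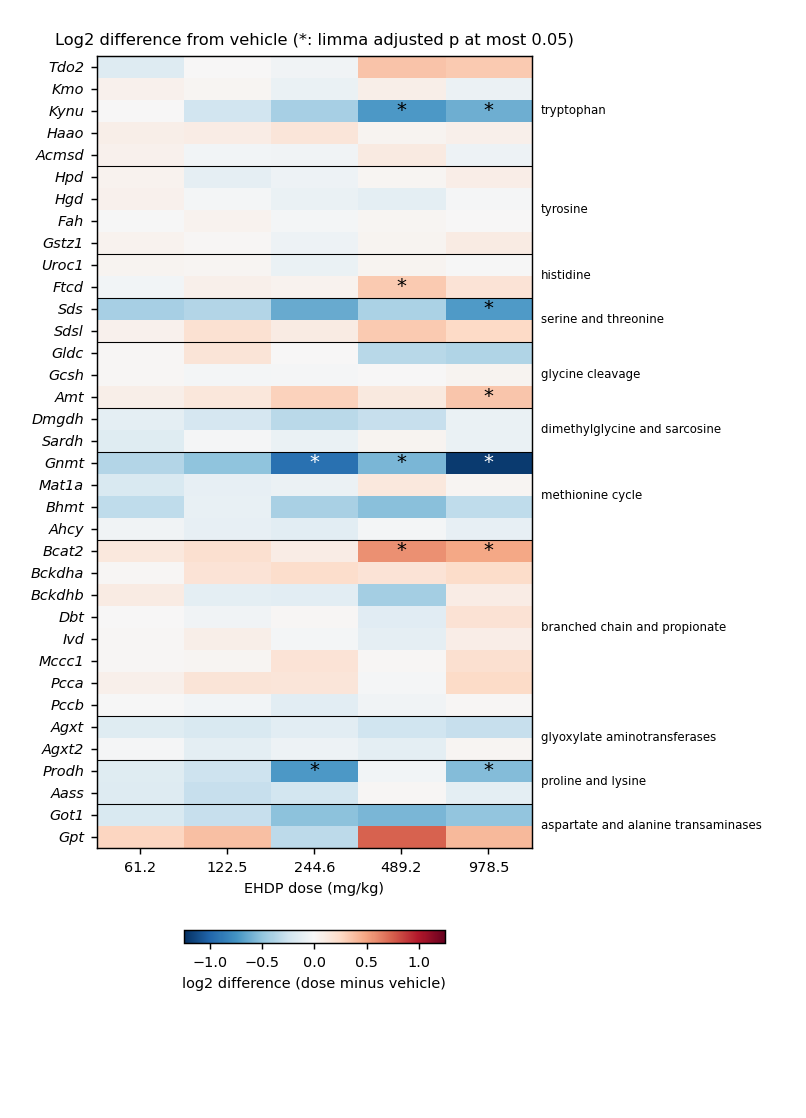
Log2 difference from vehicle (colour) of the 36 measured members, in rows by pathway, at the 5 doses of EHDP, in columns, with an asterisk where the limma adjusted p was at most 0.05. The 978.5 mg/kg column has 6 asterisks, the 489.2 mg/kg column 4 and the 244.6 mg/kg column 2, and the deepest fall is that of Gnmt at 978.5 mg/kg (-1.20).

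An interval within 1.5-fold excludes larger changes at its 95% level but not smaller ones. Amt (1.27-fold), Bcat2 (1.39-fold) and Prodh (a 1.46-fold fall) were called at 978.5 mg/kg with estimates inside that bound. Of the 30 members that were not called at 978.5 mg/kg, 25 had a 95% interval that lay within a 1.5-fold change in either direction. They include Agxt (-0.49 to -0.08), Pcca (0.08 to 0.39), Sdsl (0.03 to 0.48) and Ftcd (0.01 to 0.33), whose intervals left out 0. They also include Acmsd, whose mean of 5.21 on the vehicle arrays lay below the 20th percentile of all values (5.56). There an array may not register a change, so its interval does not bound the gene. The 5 whose interval reached past 1.5-fold were Bhmt, Gldc, Tdo2, Got1 and Gpt. Among the 6 called members, Gnmt was the one whose estimate passed 2-fold, and among the 579 genes that fell at this dose its fall ranked 27.

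**Figure D2:**
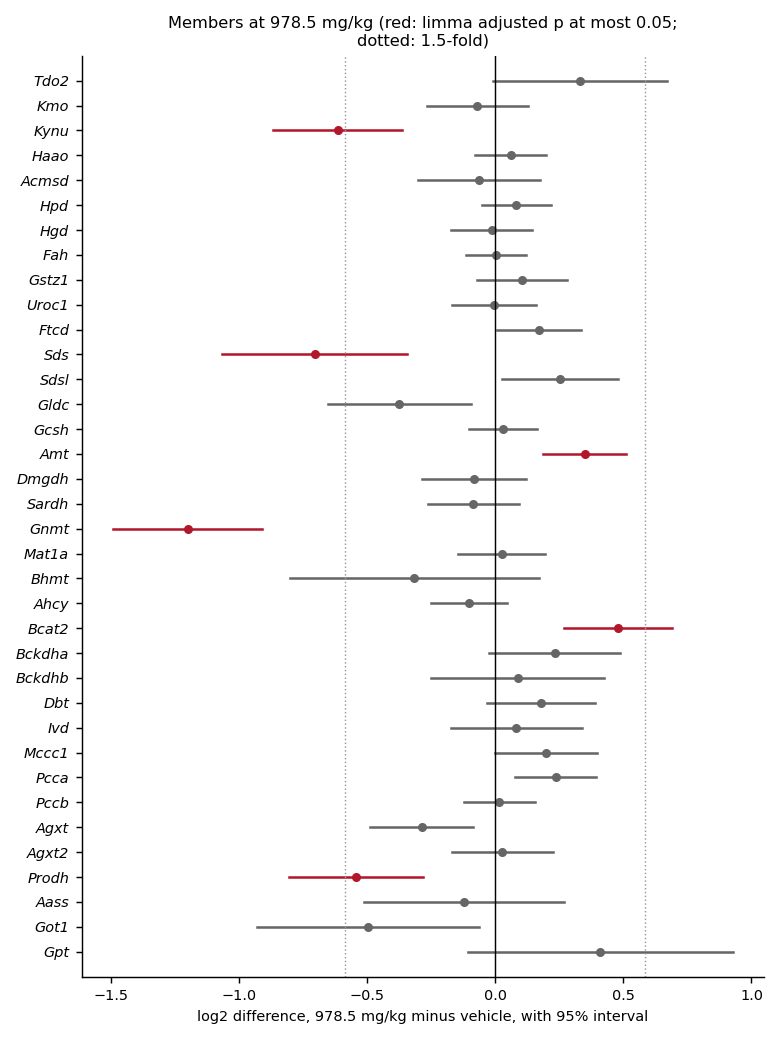
Log2 difference at 978.5 mg/kg minus vehicle (horizontal axis) for each measured member, with its 95% interval from the limma fit as a bar. Red marks the 6 called members and the dotted lines a 1.5-fold change. The interval of Gnmt (-1.49 to -0.91) lies farthest from 0, and most grey intervals lie between the dotted lines.

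In the methionine cycle, Gnmt fell and Mat1a, Ahcy and Bhmt were not called at any dose. Gnmt encodes glycine N-methyltransferase, which uses surplus S-adenosylmethionine to make sarcosine and is one of the more abundant methyltransferases of liver. Its log2 signal on the vehicle arrays was 12.99 at the lowest, 13.11 at the median and 13.21 at the highest. At 61.2 mg/kg the arrays read 12.65, 12.75 and 12.81, and at 122.5 mg/kg 12.56, 12.77 and 12.47. They read 11.82, 12.36 and 12.33 at 244.6 mg/kg, then 12.75, 12.34 and 12.51 at 489.2 mg/kg, then 11.57, 12.34 and 11.79 at 978.5 mg/kg. Every array of every dose therefore lay below every vehicle array, including at the lower doses, where the test was not passed.

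The fitted difference of Gnmt was -0.36 at 61.2 mg/kg (limma adjusted p = 0.852) and -0.50 at 122.5 mg/kg (limma adjusted p = 0.427). It was -0.93 ± 0.14 at 244.6 mg/kg (limma adjusted p = 0.000788) and -0.57 ± 0.14 at 489.2 mg/kg (limma adjusted p = 0.0296). The fall at 489.2 mg/kg did not stay past the threshold in several alternatives, among them the fits without vehicle replicate 2, 4 or 5, without 489.2 mg/kg replicate 2 or 3, or with the replicate number as a block, and the limma adjusted p reached 0.124. At 978.5 mg/kg the difference was -1.20 ± 0.14, a 2.30-fold fall (limma adjusted p = 1.76e-05). These are bulk liver samples, in which fewer cells of a type and less RNA per cell cannot be told apart.

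The other members of the cycle gave narrow or wide bounds. Mat1a, the liver form of methionine adenosyltransferase, differed by 0.02 at 978.5 mg/kg (95% interval -0.14 to 0.19). Ahcy, which splits S-adenosylhomocysteine, differed by -0.10 (-0.25 to 0.05). Bhmt, which remethylates homocysteine with betaine, spread from 11.78 to 13.13 on the vehicle arrays alone, and its difference of -0.32 had an interval of -0.80 to 0.17.

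Beyond the members, 14 other genes of methionine metabolism and cysteine synthesis were measured. Of these, 1 rose and 1 fell at 978.5 mg/kg (14.3%, beside 10.2% of all genes). The gene that fell was Cbs, cystathionine beta-synthase, which joins homocysteine to serine. Its vehicle arrays ran from 11.60 over a median of 11.80 to 11.94, and those at 978.5 mg/kg read 11.58, 11.36 and 11.18, all below. The difference was -0.40 ± 0.09 (limma adjusted p = 0.01). Cth, cystathionine gamma-lyase, the next enzyme, fell at 489.2 mg/kg (-0.58, limma adjusted p = 0.048) and was not called at 978.5 mg/kg (-0.36, limma adjusted p = 0.147).

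Along the kynurenine route of tryptophan breakdown, Kynu fell at both of the highest doses and the other 4 members were not called. Kynu encodes kynureninase, which splits kynurenine and 3-hydroxykynurenine. On the vehicle arrays its log2 signal ran from 11.98 over a median of 12.18 to 12.48. The arrays at 489.2 mg/kg read 11.50, 11.72 and 11.26, and those at 978.5 mg/kg 11.53, 11.56 and 11.68, all below every vehicle array. The difference was -0.72 ± 0.12 at 489.2 mg/kg (limma adjusted p = 0.00214) and -0.61 ± 0.12 at 978.5 mg/kg, a 1.53-fold fall (limma adjusted p = 0.00265). Without the replicate 1 arrays the difference at 489.2 mg/kg was -0.75 (limma adjusted p = 0.0506). At 244.6 mg/kg replicates 1 and 3, at 11.60 and 11.78, lay below the vehicle range and replicate 2 inside it, and the difference of -0.41 was not called (limma adjusted p = 0.0726).

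Kynu is also expressed in macrophages, and markers of Kupffer cells, the macrophages of the liver, were read in the same comparisons. Of 11 such markers measured, 1 (Cd163) fell and 1 (Cd14) rose at 978.5 mg/kg (18.2%, beside 10.2% of all genes). At 489.2 mg/kg 0 of the 11 were called, where 2.9% of all genes were. The median difference of these markers was -0.62 at 978.5 mg/kg and -0.32 at 489.2 mg/kg. The log2 of their summed signal was 13.53 to 14.01 on the vehicle arrays, 12.87 to 14.02 at 489.2 mg/kg and 13.19 to 13.65 at 978.5 mg/kg. Their part in the fall of Kynu was not tested.

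Tdo2, tryptophan 2,3-dioxygenase, catalyses the first step of the route and is a classic target of glucocorticoids. Its vehicle arrays ran from 13.18 over 13.27 to 14.01, where the highest is replicate 6, and the 978.5 mg/kg arrays read 13.55, 13.90 and 13.77, inside that range. The difference of 0.33 ± 0.16 was not called (limma adjusted p = 0.217). Without vehicle replicate 6 it was 0.45 and passed (limma adjusted p = 0.0306). Kmo and Haao, the enzymes before and after kynureninase, differed by -0.07 and 0.06, and Acmsd, near the floor of the array, by -0.06.

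Of 6 other genes of tryptophan breakdown, 2 rose and 0 fell at 978.5 mg/kg (33.3%, beside 10.2% of all genes). Afmid, the formamidase that follows tryptophan dioxygenase, rose by 0.44 (limma adjusted p = 0.00123). Kyat1, a kynurenine aminotransferase that turns kynurenine into kynurenic acid, read 9.43 to 9.72 on the vehicle arrays (median 9.63) and 10.21, 10.11 and 10.07 at 978.5 mg/kg. All 3 lay above the vehicle range, and the rise was 0.53 ± 0.09 (limma adjusted p = 0.00125). At 489.2 mg/kg Kyat1 rose by 0.42 (limma adjusted p = 0.0164).

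Among the genes of serine and glycine use, Sds fell and Amt rose at 978.5 mg/kg. Sds encodes serine dehydratase, which turns serine into pyruvate and is known to follow glucagon, glucocorticoids and protein intake. Its vehicle arrays ran from 7.39 over 7.56 to 8.27, with replicate 6 highest. The arrays read 7.14, 7.00 and 7.00 at 244.6 mg/kg, 7.00, 7.04 and 7.81 at 489.2 mg/kg and 6.96, 7.06 and 6.90 at 978.5 mg/kg. All but the third array at 489.2 mg/kg lay below the vehicle range. The difference was -0.63 at 244.6 mg/kg (limma adjusted p = 0.0547), -0.39 at 489.2 mg/kg (limma adjusted p = 0.292) and -0.70 ± 0.17 at 978.5 mg/kg (limma adjusted p = 0.0132). Without 978.5 mg/kg replicate 3 (limma adjusted p = 0.071) or without the replicate 1 arrays (limma adjusted p = 0.0734) the last did not pass.

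Sdsl, a related dehydratase, read 7.93 to 8.18 on the vehicle arrays (median 8.13) and 8.37, 8.43 and 8.26 at 978.5 mg/kg, all above. The difference of 0.25 was not called (limma adjusted p = 0.153), while the trend over doses was. Its fitted estimate at 978.5 mg/kg therefore had the opposite sign to that of Sds. The second probe set of Sdsl, at a mean log2 signal of 7.83, differed by 0.23 at 978.5 mg/kg. In a fit over all probe sets of 1 symbol its trend was not called (limma adjusted p = 0.14).

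The glycine cleavage system breaks glycine down to carbon dioxide, ammonia and a one-carbon unit carried by folate, and its parts did not move together. Amt, the aminomethyltransferase of the system, read 9.44 to 9.74 on the vehicle arrays (median 9.70). It read 9.95, 9.91 and 9.98 at 244.6 mg/kg, 9.89, 9.78 and 9.69 at 489.2 mg/kg and 10.16, 9.86 and 10.00 at 978.5 mg/kg. The arrays at 244.6 and 978.5 mg/kg lay above every vehicle array, and 1 array at 489.2 mg/kg did not. The rise at 978.5 mg/kg was 0.35 ± 0.08, or 1.27-fold (limma adjusted p = 0.00685). Without 978.5 mg/kg replicate 1 (limma adjusted p = 0.0648) or without all replicate 1 arrays (limma adjusted p = 0.119) it did not pass.

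Gldc, the glycine decarboxylase that starts the reaction, read 9.46 to 10.02 on the vehicle arrays (median 9.68) and 9.51, 9.16 and 9.26 at 978.5 mg/kg. The difference of -0.37 ± 0.13 was not called (limma adjusted p = 0.0813). It passed after a second quantile normalisation (limma adjusted p = 0.047) and without 489.2 mg/kg replicate 3 (limma adjusted p = 0.0488). Gcsh, the lipoyl carrier protein, differed by 0.03 (95% interval -0.10 to 0.16). Sardh and Dmgdh, the mitochondrial enzymes that oxidise sarcosine and dimethylglycine, both differed by -0.08. The 978.5 mg/kg arrays of Sardh read 11.33, 11.40 and 11.21, of which only the last was outside the vehicle range of 11.28 to 11.62 (median 11.33). The second probe set of Sardh, at a mean log2 signal of 8.64, differed by 0.07 at 978.5 mg/kg and was not called.

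Shmt1, the cytosolic serine hydroxymethyltransferase, was the 1 gene called among 9 others of serine, threonine and glycine use at 978.5 mg/kg (11.1%, beside 10.2% of all genes). It rose by 0.33 at 244.6 mg/kg (limma adjusted p = 0.00849), 0.39 at 489.2 mg/kg (limma adjusted p = 0.00312) and 0.32 at 978.5 mg/kg (limma adjusted p = 0.00435).

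**Figure D3:**
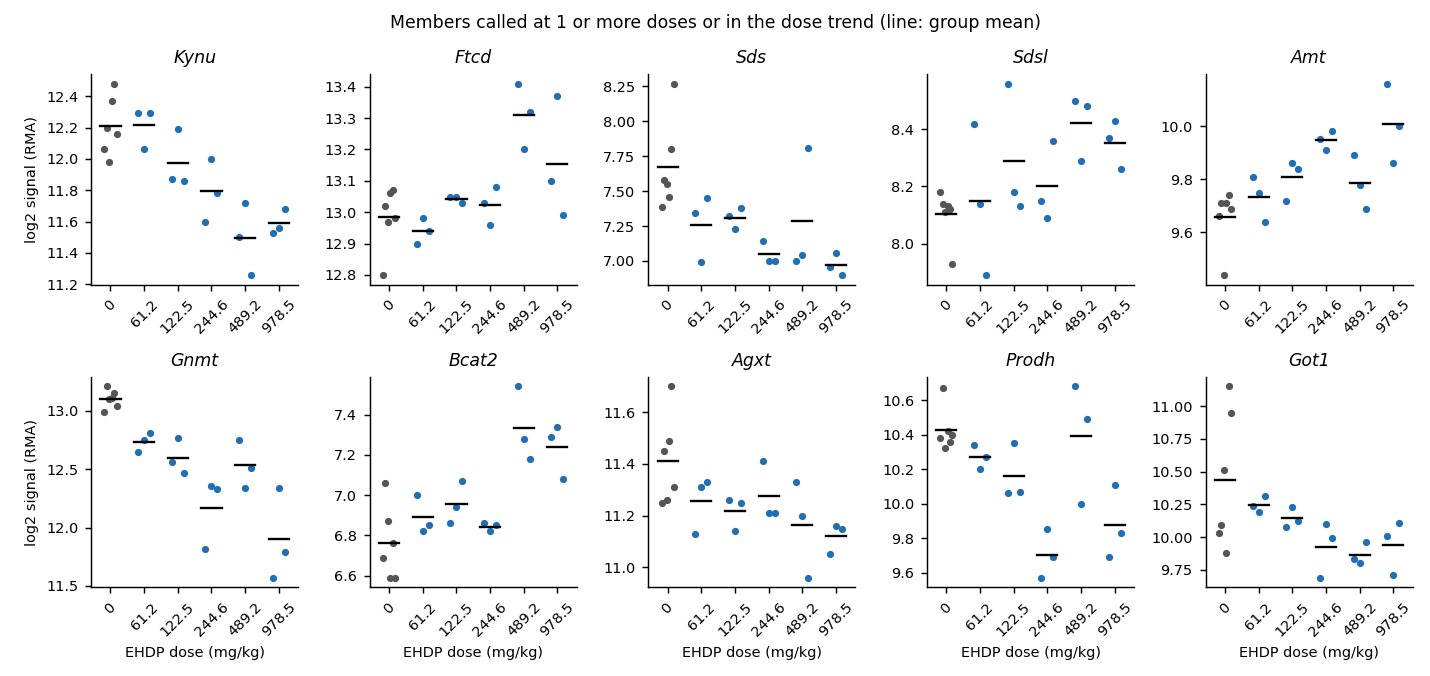
Log2 signal (RMA) on each array (points) and the group mean (line) against EHDP dose in mg/kg, for the 10 members called at 1 or more doses or in the dose trend. All treated arrays of Gnmt lie below the vehicle arrays, Kynu steps down to the highest doses, and Prodh is low at 244.6 and 978.5 mg/kg and near vehicle at 489.2 mg/kg.

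Prodh changed without a steady order over the doses. It encodes proline dehydrogenase, the mitochondrial enzyme that starts proline oxidation. The vehicle arrays read 10.32 at the lowest, 10.39 at the median and 10.67 at the highest. At 244.6 mg/kg the arrays read 9.57, 9.85 and 9.69, at 489.2 mg/kg 10.68, 10.00 and 10.49, and at 978.5 mg/kg 9.69, 10.11 and 9.83. The arrays at 244.6 and 978.5 mg/kg lay below every vehicle array, and those at 489.2 mg/kg fell on both sides of the vehicle range.

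The difference of Prodh was -0.72 ± 0.12 at 244.6 mg/kg (limma adjusted p = 0.00211), -0.03 ± 0.12 at 489.2 mg/kg (limma adjusted p = 0.95) and -0.54 ± 0.12 at 978.5 mg/kg (limma adjusted p = 0.00802). Without 978.5 mg/kg replicate 1 (limma adjusted p = 0.0645) or without all replicate 1 arrays (limma adjusted p = 0.0824) the last did not pass. The second probe set of Prodh, at a mean log2 signal of 5.71, differed by -0.03 at 978.5 mg/kg. In a comparison of 489.2 with 244.6 mg/kg that was added after these values were seen, Prodh was higher at 489.2 mg/kg by 0.69 ± 0.14 (limma adjusted p = 0.0127). Bcat2, also higher at 489.2 mg/kg, by 0.48 (limma adjusted p = 0.0332), was the other member called there. That is 5.56% of the 36 members, where 1.7% of all genes were called (0.204% higher and 1.5% lower at 489.2 mg/kg). Without 244.6 mg/kg replicate 1, without 489.2 mg/kg replicate 1, without all replicate 1 arrays, or in a fit of these 6 arrays alone, 0 members were called.

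Aass, which starts lysine breakdown, varied between arrays, from 11.92 to 12.66 on the vehicle arrays, and differed by -0.12 at 978.5 mg/kg (95% interval -0.51 to 0.27). Among 11 other genes of proline, lysine and transamination, 0 rose and 1 fell at 978.5 mg/kg (9.09%, beside 10.2% of all genes). That gene was Oat, ornithine aminotransferase, which links ornithine to proline and glutamate and is also one of the pericentral hepatocyte markers listed here. Oat read 10.57 to 11.62 on the vehicle arrays (median 11.04) and 9.47, 9.64 and 9.83 at 978.5 mg/kg, with no overlap. It fell by 1.42 at 244.6 mg/kg (limma adjusted p = 0.0015), by 1.48 at 489.2 mg/kg (limma adjusted p = 0.00122) and by 1.39 at 978.5 mg/kg (limma adjusted p = 0.000847), all on the log2 scale.

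Of the 8 members that act on branched chain amino acids and propionate, 1 rose at 978.5 mg/kg (12.5%, beside 10.2% of all genes). Their estimates were above 0 for 8 of 8 at that dose (median 0.19) and for 3 of 8 at 489.2 mg/kg (median -0.03), and at 978.5 mg/kg those of Bckdha and Pccb turned below 0 under some alternatives. Bcat2, the mitochondrial branched chain aminotransferase, is known for low expression in hepatocytes and high expression in muscle. It read 6.59 to 7.06 on the vehicle arrays (median 6.72) and 6.86, 6.82 and 6.85 at 244.6 mg/kg. The arrays at 489.2 mg/kg read 7.54, 7.28 and 7.18 and those at 978.5 mg/kg 7.29, 7.34 and 7.08, all above every vehicle array. Bcat2 rose by 0.57 ± 0.10 at 489.2 mg/kg (limma adjusted p = 0.0031) and by 0.48 ± 0.10, or 1.39-fold, at 978.5 mg/kg (limma adjusted p = 0.00449). Without the replicate 1 arrays neither passed, with a limma adjusted p of 0.156 at 489.2 mg/kg and 0.0628 at 978.5 mg/kg.

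The branched chain keto acid dehydrogenase follows the aminotransferase. Its members Bckdha, Bckdhb and Dbt differed by 0.23, 0.09 and 0.18 at 978.5 mg/kg and were not called at any dose. The second probe set of Bckdha, at a mean log2 signal of 6.14, differed by -0.44 at 978.5 mg/kg and was not called. Bckdhb read 10.74 on the first array at 489.2 mg/kg against 11.69 to 11.97 on the vehicle arrays, and its difference of -0.43 at that dose was not called (limma adjusted p = 0.198). Ivd and Mccc1, on the leucine branch, differed by 0.08 and 0.20. Pcca and Pccb, the subunits of propionyl-CoA carboxylase, differed by 0.24 (limma adjusted p = 0.0524) and 0.02. Pcca passed under 7 of 33 alternatives, among them median centring (limma adjusted p = 0.0375) and array weights (limma adjusted p = 0.0471).

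Of 15 other genes of this route, 7 rose and 0 fell at 978.5 mg/kg (46.7%, beside 10.2% of all genes), with a median difference of 0.24. Hibch, which releases 3-hydroxyisobutyrate in valine breakdown, read 9.69 to 10.45 on the vehicle arrays (median 10.21) and 11.21, 11.05 and 11.26 at 978.5 mg/kg. No array of that dose overlapped the vehicle range, and Hibch rose by 1.02 ± 0.14 (limma adjusted p = 0.000144). Acad8, isobutyryl-CoA dehydrogenase of the valine branch, rose by 0.45 (limma adjusted p = 0.00441), and Auh, a hydratase of the leucine branch, by 0.35 (limma adjusted p = 0.00576). At 489.2 mg/kg 0 of the 15 were called by limma, where 2.9% of all genes were called.

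In histidine breakdown, Ftcd rose at 489.2 mg/kg. It encodes formiminotransferase cyclodeaminase, which passes the formimino group of histidine to folate. Its vehicle arrays ran from 12.80 over 13.00 to 13.07, the arrays at 489.2 mg/kg read 13.41, 13.20 and 13.32, all above, and those at 978.5 mg/kg read 13.10, 13.37 and 12.99. The rise at 489.2 mg/kg was 0.33 ± 0.08 (limma adjusted p = 0.0254), and the difference of 0.17 at 978.5 mg/kg was not called (limma adjusted p = 0.179). Without 489.2 mg/kg replicate 1 or 3, without all replicate 1 arrays, with the replicate number as a block, or in a fit of those arrays and vehicle alone, the rise at 489.2 mg/kg did not pass, with a limma adjusted p of up to 0.46. Uroc1, urocanase, differed by less than 0.01 in size at 978.5 mg/kg (95% interval -0.17 to 0.16).

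The genes that act on histidine itself went in opposite directions. Hal, histidine ammonia-lyase, which starts the breakdown and is also a periportal hepatocyte marker, read 10.71 to 11.26 on the vehicle arrays (median 11.10) and 10.55, 10.35 and 10.42 at 978.5 mg/kg, all below. It fell by 0.59 at 489.2 mg/kg (limma adjusted p = 0.0262) and by 0.63 at 978.5 mg/kg (limma adjusted p = 0.00684) on the log2 scale. Hdc, histidine decarboxylase, which makes histamine, read 6.93 to 7.54 on the vehicle arrays (median 7.01) and 8.52, 8.34 and 8.33 at 978.5 mg/kg. Hdc rose by 1.34 at 489.2 mg/kg (limma adjusted p = 0.000812) and by 1.26 ± 0.20 at 978.5 mg/kg (limma adjusted p = 0.000552).

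The 4 members of tyrosine breakdown, Hpd, Hgd, Fah and Gstz1, catalyse successive steps from 4-hydroxyphenylpyruvate to fumarate and acetoacetate, and none was called at any dose. At 978.5 mg/kg their differences lay between -0.01 (Hgd) and 0.10 (Gstz1), and the interval of Fah was -0.11 to 0.12. The 978.5 mg/kg arrays of Gstz1 read 12.78, 12.92 and 13.03 beside 12.67 to 12.91 on the vehicle arrays (median 12.81), so the groups overlapped. Of 4 other genes of phenylalanine and tyrosine use, 2 rose and 0 fell at 978.5 mg/kg (50%, beside 10.2% of all genes). Gch1, GTP cyclohydrolase, the first enzyme of tetrahydrobiopterin synthesis, rose by 0.45 (limma adjusted p = 0.00119). Tat, tyrosine aminotransferase, a classic glucocorticoid target, differed by 0.26 (95% interval -0.25 to 0.78) and was not called at any dose.

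**Figure D4:**
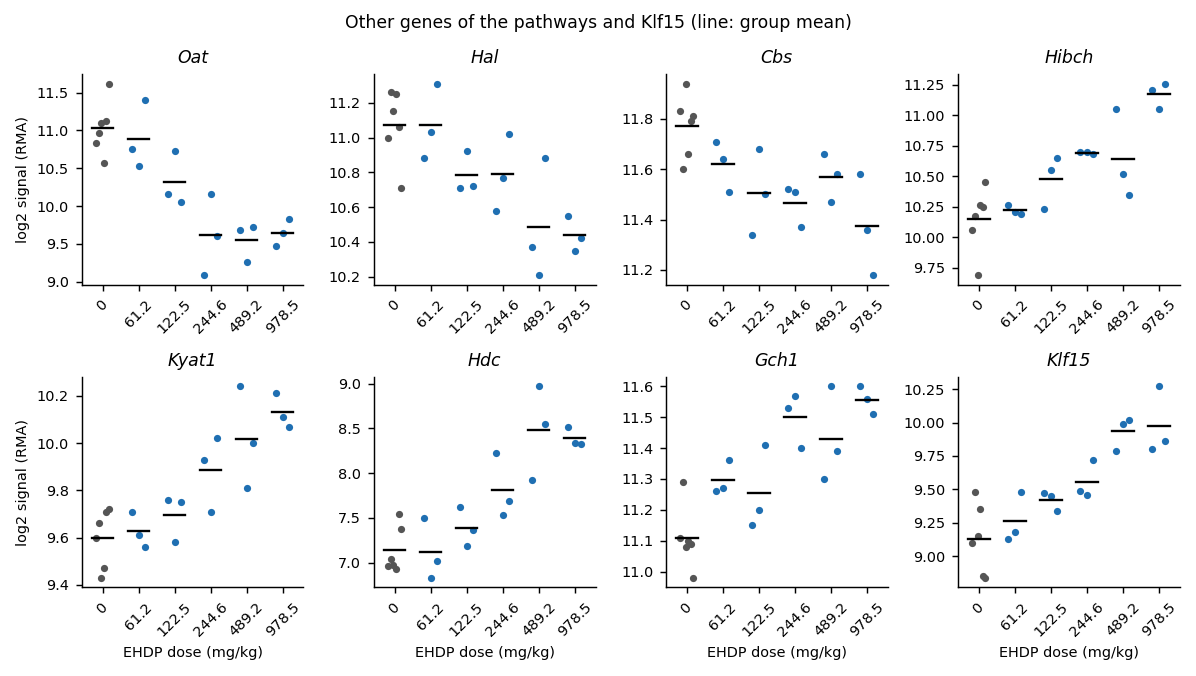
Log2 signal (RMA) on each array (points) and the group mean (line) against EHDP dose in mg/kg, for 7 other genes of these pathways and the transcription factor gene Klf15. Oat, Hal and Cbs lie lower at 978.5 mg/kg than on the vehicle arrays, and Hibch, Kyat1, Hdc, Gch1 and Klf15 higher, with no overlap at that dose.

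Agxt and Agxt2 encode aminotransferases that turn glyoxylate into glycine, and Got1 and Gpt the aspartate and alanine aminotransferases. Agxt read 11.25 to 11.70 on the vehicle arrays (median 11.38) and 11.05, 11.16 and 11.15 at 978.5 mg/kg. All 3 lay below the vehicle range, yet the difference of -0.29 ± 0.10 was not called (limma adjusted p = 0.0639). It passed under 3 alternatives, with a limma adjusted p of 0.029 after a second quantile normalisation. Agxt2 differed by 0.03 (95% interval -0.17 to 0.23). Among 4 other genes of glyoxylate use, 1 rose and 1 fell at 978.5 mg/kg (50%, beside 10.2% of all genes). The gene that fell was Hao1, glycolate oxidase, at -0.29 (limma adjusted p = 0.0125).

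Gpt, Bhmt and Got1 had the largest standard errors of the members at 978.5 mg/kg. Got1 read 9.88 to 11.15 on the vehicle arrays (median 10.30) and 10.01, 9.71 and 10.11 at 978.5 mg/kg, and its difference of -0.50 ± 0.21 was not called (limma adjusted p = 0.142). Gpt read 10.04 to 10.76 on the vehicle arrays (median 10.40) and 12.01, 10.50 and 10.89 at 489.2 mg/kg, where the first array stood far above the others. Its difference of 0.74 ± 0.25 at that dose was not called (limma adjusted p = 0.132).

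Over the ordered doses, 4 members rose and 5 fell, which is 25% of the members, where 11.2% of all genes had a called trend (6.06% upwards and 5.12% downwards). The slopes are log2 units per step in dose rank, from 0 for vehicle to 5 for 978.5 mg/kg. Gnmt had the steepest, at -0.21 ± 0.03 (limma adjusted p = 3.71e-05), followed by Kynu at -0.15 ± 0.02 (limma adjusted p = 4.77e-05), Sds at -0.12 (limma adjusted p = 0.0128) and Got1 at -0.12 (limma adjusted p = 0.0257). Agxt had -0.05 (limma adjusted p = 0.0353). The upward slopes were 0.10 for Bcat2 (limma adjusted p = 0.00137), 0.06 for Amt (limma adjusted p = 0.00665), 0.06 for Sdsl (limma adjusted p = 0.039) and 0.05 for Ftcd (limma adjusted p = 0.0269). Prodh, called at 2 single doses, had no called trend (limma adjusted p = 0.0704).

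Some of these trends hung on single arrays. Leaving out 978.5 mg/kg replicate 2 left 5 called members, Kynu, Sds, Amt, Gnmt and Bcat2. The trend of Ftcd was also lost without vehicle replicate 1, and that of Got1 without vehicle replicate 6. Without the 6 replicate 1 arrays 5 members had a called trend, Kynu, Sdsl, Gnmt, Bcat2 and Agxt. The trends of Agxt and Sdsl were lost in 10 and 13 of 33 alternatives. Over the treated arrays alone 2 members had a called trend, Kynu and Tdo2. The share of all genes with a called trend in these fits is not given here.

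From 489.2 to 978.5 mg/kg, a comparison that uses no vehicle array, 0 members were called by limma, where 0.106% of all genes were called. An unadjusted limma p under 0.05 was seen for 6 members, and the share of all genes at that looser cut is not given here. Gnmt was lower at 978.5 mg/kg by 0.63 in the log2 fit (-0.63 ± 0.16, limma adjusted p = 0.127), and Kynu differed by 0.10 (95% interval -0.19 to 0.39). Without 978.5 mg/kg replicate 2 Gnmt was called lower, and without 489.2 mg/kg replicate 2 Prodh was.

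Of the 67 other genes of these pathways that were measured, 15 rose and 4 fell at 978.5 mg/kg (28.4%, beside 10.2% of all genes), and 4 rose and 3 fell at 489.2 mg/kg (10.4%, beside 2.9%). Of 15 genes of regulators of amino acid use, 2 rose and 0 fell at 978.5 mg/kg (13.3%, beside 10.2% of all genes). Klf15, a transcription factor known to act on amino acid breakdown in liver and itself under circadian and glucocorticoid control, read 8.84 to 9.48 on the vehicle arrays (median 9.12) and 9.80, 10.27 and 9.86 at 978.5 mg/kg, all above. It rose by 0.80 at 489.2 mg/kg (limma adjusted p = 0.00214) and by 0.85 ± 0.14 at 978.5 mg/kg (limma adjusted p = 0.000504). Ppara, the nuclear receptor of fatty acid oxidation, rose by 0.51 at 978.5 mg/kg (limma adjusted p = 0.0157).

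Other marker lists were read in the same comparison, where 10.2% of all genes were called. The shares called were 64.3% of clock genes, 26.7% of periportal markers and 14.3% of pericentral markers. Of 14 clock genes 5 rose and 4 fell at 978.5 mg/kg, among them Dbp, a clock output gene, at 2.87 ± 0.45 (limma adjusted p = 0.000478). Of 15 periportal hepatocyte markers 1 rose and 3 fell, with a log2 summed signal of 16.24 to 16.39 on the vehicle arrays and 16.15 to 16.32 at 978.5 mg/kg. Of 14 pericentral markers 0 rose and 2 fell, with 16.04 to 16.19 and 15.84 to 15.97. The part of the clock and of liver zonation in the members' differences was not tested.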

How the data were processed

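Total RNA of rat liver (100 ng per array) was hybridised to 21 Affymetrix expression arrays. The authors deposited log2 signals, made by RMA per the submitters' processing notes, whose version and settings are not given in the sources used here. RMA includes a quantile normalisation, which assumes that most genes do not shift together. The table held 31099 probe sets, of which 20832 had 1 symbol in the platform annotation, 436 several and 9831 none, and only the first were used. No further scaling was applied.

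Tests used the limma package (3.58.1, under R 4.3.3), with 1 mean per group over all 21 arrays (15 residual degrees of freedom) and Benjamini-Hochberg adjustment over 14218 genes at 0.05. The trend used dose rank 0 to 5. Tables used Python 3.11.15, pandas 2.3.3 and numpy 2.4.6, and plots matplotlib 3.10.9. The 3 arrays per dose limit the precision, and the p-values rest on a spread pooled over all 21 arrays and drawn towards that of all genes.

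Members, lists, motifs and tests were chosen with earlier results of these data known. Values per array were given for called members and for the member with the largest difference at 978.5 mg/kg in each pathway group. Array values of Tdo2, Gpt and Bckdhb were given outside this rule. Other genes were named where called, the 12 with the smallest p at 978.5 mg/kg at most, plus Tat, Hal, Cbs, Cth and Klf15. A further gene of that rule is not reported here. Dbp, Cd14, Cd163 and Lyve1 were named after their values were seen. Lists held 264 genes, 233 of them measured. Promoters came from RefSeq (GRCr8).

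Replicate numbers were not taken to pair the arrays, since not every same-numbered pair passed 0.1. Failing this bar does not exclude a difference shared by arrays of the same number. Of 45 same-numbered pairs 17 had deviations correlated above 0.1 (range -0.23 to 0.37), and of the 15 pairs of replicate 1 arrays 8 did (-0.17 to 0.33). The mean correlation was 0.036 for same-numbered pairs and -0.018 for pairs of different numbers. Tested on simulated data of 14218 genes, 80% of 1.5-fold and 99% of 2-fold changes were recovered at 978.5 mg/kg with 19 false calls, and 88% and 100% in the trend with 14. The simulated noise was independent between arrays and held no replicate 1 difference, so these rates may not hold for the real arrays. Alternatives covered probe set choice, low-value filters, scaling, eBayes options, array weights, the replicate block, arrays in the fit each array left out and, added after seeing the data, the replicate 1 arrays as a term or left out.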

Additional observations from a re-analysis of the deposited data

Results flagged for a closer look

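For 4 of the 36 members, 1 vehicle array stood apart from the other 5 by more than Dixon's 95% critical value for 6 samples, where chance flags about 1 in 20 groups. Ftcd read 12.80 on vehicle replicate 1, with the nearest array at 12.97. Sdsl read 7.93 on vehicle replicate 6, with the nearest at 8.11. Amt read 9.44 on vehicle replicate 3, with the nearest at 9.66. Prodh read 10.67 on vehicle replicate 2, with the nearest at 10.42. The 4 flags fell on 4 different vehicle arrays. All 4 genes were called at a dose or in the trend, and each odd array lay on the side that widens the difference from vehicle. Without its odd array the trend was not called for Ftcd or Sdsl. The calls of Ftcd at 489.2 mg/kg, of Amt, and of Prodh at 244.6 and 978.5 mg/kg were kept.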

How the results depend on the processing

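No called difference of a member changed sign under the alternatives run. At 978.5 mg/kg 13 members changed sign under 1 or more alternatives, and 0 of these were called. The calls of Gnmt and Kynu at 978.5 mg/kg and of Gnmt and Prodh at 244.6 mg/kg kept their side of the threshold under every alternative in which the gene was tested. Median centring and a second quantile normalisation moved the median of all genes by less than 0.1. With array weights 1 member was called at 122.5 mg/kg (Pcca) and 4 at 244.6 mg/kg (Sds, Amt, Gnmt and Prodh), against 0 and 2. With the replicate block, though the numbers were not taken to pair the arrays (10 of 18 arrays correlated best with their own number), 2 members were called at 489.2 mg/kg (Ftcd and Gnmt were lost, limma adjusted p = 0.0564 and 0.0923) and 5 at 978.5 mg/kg, where Bcat2 was lost (limma adjusted p = 0.0548). The trend had 5 called members with dose in mg/kg (Kynu, Gldc, Amt, Gnmt and Bcat2) and 2 over treated arrays only. For 489.2 against 244.6 mg/kg, the comparison added later, 1 member (Prodh) was called among genes above the median level and with a floor at the 20th percentile, and 0 with only the arrays compared. Without the 6 replicate 1 arrays, an alternative added after seeing the data that leaves 2 arrays per dose, 1 member was called at 489.2 mg/kg, 2 at 978.5 mg/kg, 5 in the trend and 0 for 489.2 against 244.6 mg/kg. With a term for these arrays the counts were as reported. With each array left out in turn, the number of called members was 0 at 61.2 and 122.5 mg/kg, 2 to 4 at 244.6 mg/kg, 3 to 5 at 489.2 mg/kg and 4 to 8 at 978.5 mg/kg, 0 to 1 for 978.5 against 489.2 mg/kg, 5 to 10 for the trend and 0 to 3 for 489.2 against 244.6 mg/kg. Without vehicle replicate 6, 489.2 mg/kg replicate 3 or 978.5 mg/kg replicate 1, the count at 978.5 mg/kg was 8, 8 and 4. The share of all genes called under each alternative is not given here, so these counts cannot be set against it. The causes were not tested. Arrays give no counts, and the main fits took their spread from all 21 arrays.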
